A study of Homo sapiens with 11 samples.

Results

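The genes described here are 10 feedback inhibitors of mitogen-activated protein kinase (MAPK) signalling: the dual-specificity phosphatases DUSP2, DUSP4, DUSP5, DUSP6, DUSP10 and DUSP16, the Sprouty genes SPRY1 and SPRY2, and the Sprouty-related genes SPRED1 and SPRED2. They were picked by name as an indirect transcript readout of the pathway, and are 10 of the 19775 genes that the array reads through probe sets with 1 gene symbol. The 10 genes had 23 such probe sets, and each gene was read from the probe set with the highest mean over all lines. RNA of 11 established cell lines of T-cell acute lymphoblastic leukemia (T-ALL) was hybridized to 1 HG U133 Plus 2.0 array per line. NKL homeobox genes encode a subclass of developmental transcription factors, several of which act as oncogenes in T-ALL. The NKL-positive lines were LOUCY, JURKAT, PEER, HPB-ALL, CCRF-CEM and ALL-SIL, and the NKL-negative lines were SUP-T1, CML-T1, MOLT-16, MOLT-14 and MOLT-4. The comparison of groups used 5 lines on each side, and JURKAT stayed outside it and is shown beside the others. The labels name no added agent and no engineered allele for any line. Each line stands for the leukemia of 1 patient, so the line is the replicate and there is no repeat array within a line.

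In the MAPK cascade, receptor signals activate RAS, and RAS drives the kinases RAF, MEK and ERK. ERK then switches on transcription of its own inhibitors. Dual-specificity phosphatases remove phosphate from ERK, JNK or p38, while Sprouty and SPRED proteins act further upstream on RAS and RAF. In T-cells this cascade runs downstream of the T-cell receptor. Array values give transcript levels and not kinase activity, and in RNA of a whole culture a low value can mean fewer expressing cells or less RNA per cell, which cannot be told apart.

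All values are deposited log2 levels after robust multi-array averaging (RMA), so that a difference of 1 is a doubling of signal. The array medians lay between 4.63 and 4.76 and the lower quartiles between 3.45 and 3.6, and values around or below the quartile are near the floor of the array. Of 12 T-cell markers, 9 to 12 were above the array median in the NKL-positive lines and 11 to 12 in the NKL-negative lines, against 0 to 3 and 0 to 2 of 8 myeloid markers. Of 6 B-cell markers 2 to 4 were above it in the NKL-positive lines and 2 to 3 in the NKL-negative lines, and of 5 erythroid and megakaryocyte markers 2 to 4 and 1 to 4. The 24 probe sets for the poly-A control transcripts had a mean of 3 to 3.14 in the lines CML-T1, MOLT-16 and HPB-ALL, against 5.96 to 9.48 in each of the remaining 8. The labels do not say why, and the differences of the 10 genes and of the pathway genes nearest to a group difference are also given within each of these sets of lines. The difference between the 3′ and 5′ probe sets of ACTB, which increases as RNA degrades, was 0.51 ± 0.28 in NKL-positive lines and 0.88 ± 0.28 in NKL-negative lines (SD, n = 5 each), and its part in the results was not tested.

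The 10 feedback genes varied widely from line to line, and none passed the test between the NKL groups. Of the 10, 2 (DUSP6 and DUSP10) had a higher mean in the NKL-positive lines and 8 had a lower one. At an adjusted p under 0.05 by limma with Benjamini-Hochberg adjustment over all 54613 probe sets, 0 of the 10 genes and 0 of their 23 probe sets were called, against 5 probe sets or 0.00916% over the array. At an unadjusted p under 0.05 there was 1 of the 10 genes, SPRED1, against 5.26% of all genes. For 0 of the 10 did the groups separate without overlap, against 0.905% of all genes. The median difference of the 10 genes, NKL-positive minus NKL-negative, was -0.56, and over all genes it was 0 with 49.8% of genes higher. Leaving out PEER alone brought the median of the 10 to -0.24.

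**Figure D1:**
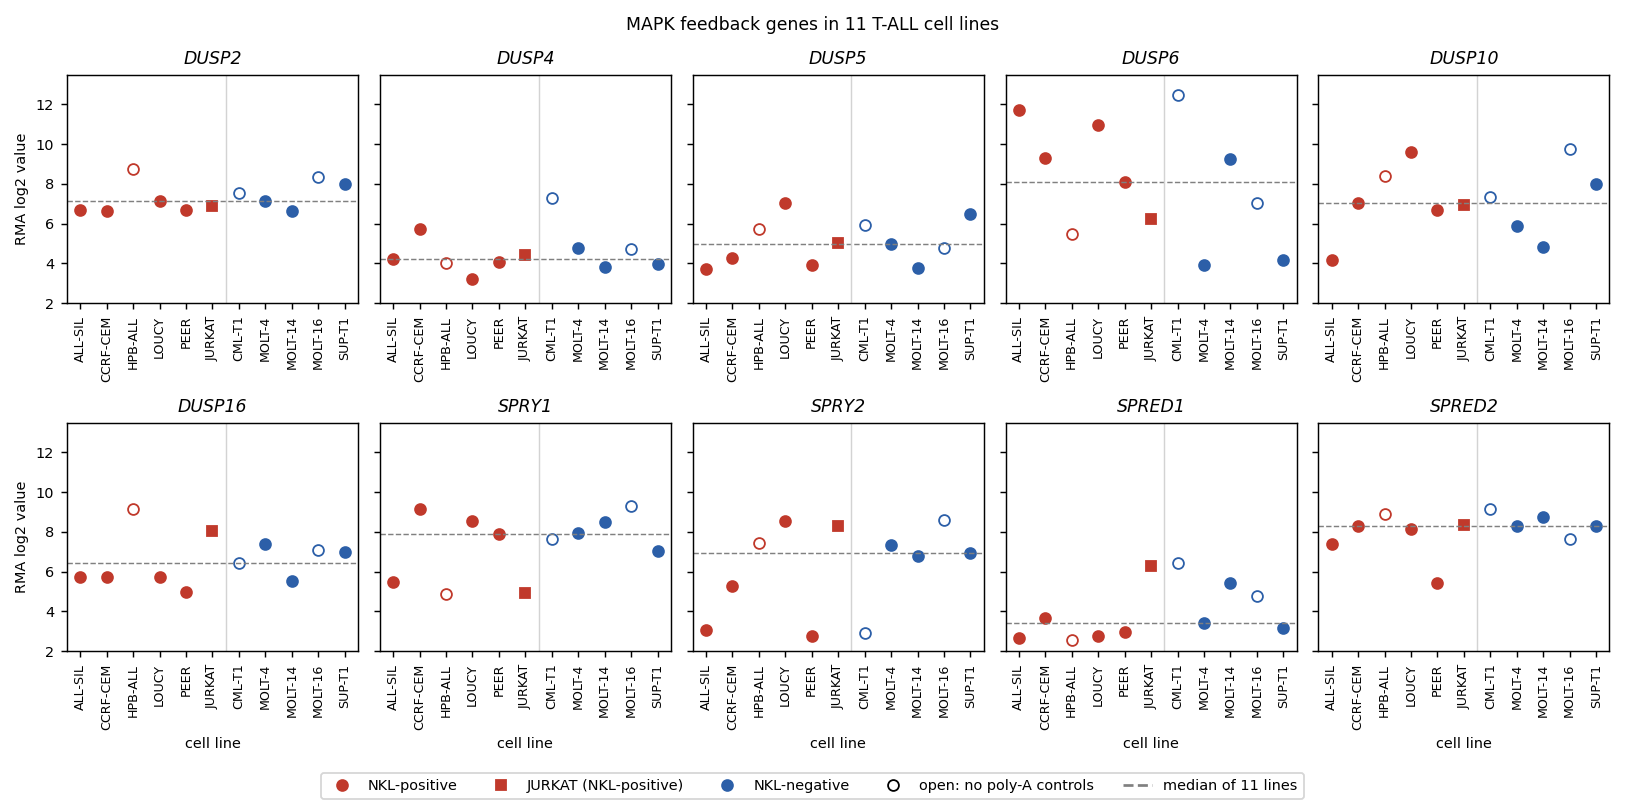
RMA log2 values (vertical axis) of the 10 feedback genes in each of the 11 cell lines (horizontal axis). Red marks are NKL-positive lines, with JURKAT as a square, blue marks are NKL-negative lines, open marks are the 3 lines without poly-A controls, and the dashed line is the median of all 11. DUSP6 spans 3.90 to 12.48, SPRY2 is lowest in PEER, CML-T1 and ALL-SIL, and in no panel do the groups separate.

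Spread between lines was the main feature of the set. The standard deviation over the 11 lines had a median of 1.36 for the 10 genes and 0.51 for all genes, or 0.58 for genes whose mean was above the array median. All 10 had a larger standard deviation than the median gene. The distance between the highest and lowest line had a median of 4.12 for the 10 genes and 1.66 for all genes. A gene was said to stand out in a line when it lay at least 2 log2 units above or below the median of the other 10 lines, with the higher side above the array median. Above, 6 of the 10 genes stood out in at least 1 line, against 11.5% of all genes. Below, 5 of the 10 did so, against 9.46% of all genes. DUSP2 was the 1 gene that stood out in no line.

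DUSP6, the cytoplasmic phosphatase that acts on ERK, had the widest spread of the 10 genes. Its standard deviation of 2.96 was above that of 99.8% of genes, and its values covered 8.58 log2 units. In the NKL-positive lines DUSP6 (probe set 208891_at) was at 11.70 in ALL-SIL, 10.98 in LOUCY, 9.30 in CCRF-CEM, 8.07 in PEER, 6.25 in JURKAT and 5.50 in HPB-ALL. In the NKL-negative lines it was at 12.48 in CML-T1, 9.26 in MOLT-14, 7.06 in MOLT-16, 4.15 in SUP-T1 and 3.90 in MOLT-4. Each group thus held lines with high and with low DUSP6, and the highest and the lowest value of the series were both in NKL-negative lines. The means were 9.11 ± 2.47 in NKL-positive lines and 7.37 ± 3.61 in NKL-negative lines (SD, n = 5 each), a difference of 1.74 (SE 1.71, limma adjusted p = 0.981). Among lines with poly-A controls DUSP6 averaged 10.01 in 4 NKL-positive lines and 5.77 in 3 NKL-negative lines, a difference of 4.24 (limma adjusted p = 0.594). Among lines without these controls the sign was opposite, with 5.50 in the 1 NKL-positive line and a mean of 9.77 in 2 NKL-negative lines, a difference of -4.27. With a term for the control signal in the fit the difference was 1.86.

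The line order of DUSP6 was nearly the same on each of its probe sets. The other 2 probe sets correlated with the one read at r = 0.98 each over the 11 lines, and 9 of 11 lines held the same place in all 3. Only MOLT-4 and SUP-T1, the lowest lines, changed places. Because each line had 1 array, the steps between neighbours in this order have no replicate error, but CML-T1 was first in all 3 probe sets at 12.48, 12.02 and 12.42.

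**Figure D2:**
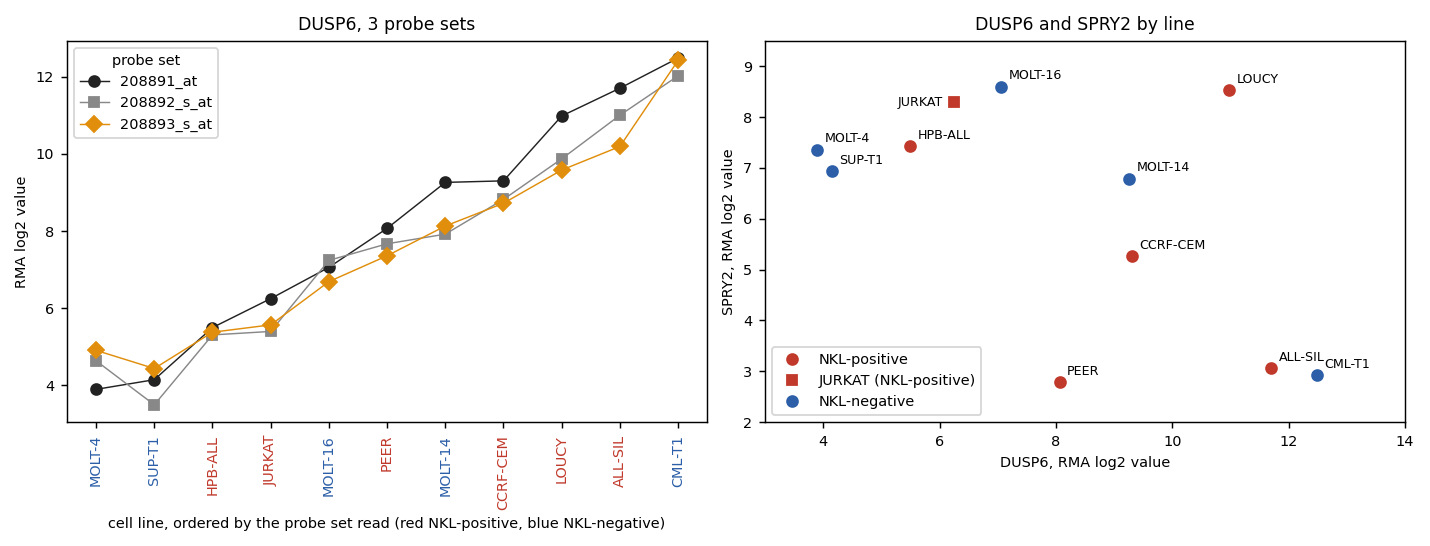
Left, RMA log2 values of the 3 DUSP6 probe sets (vertical axis) in the 11 lines (horizontal axis, ordered by the probe set that was read), with CML-T1 highest at 12.48, 12.02 and 12.42. Right, DUSP6 against SPRY2, both as RMA log2 values, with 1 mark per line in red for NKL-positive and blue for NKL-negative lines; ALL-SIL, PEER and CML-T1 lie at the bottom, with SPRY2 between 2.78 and 3.06.

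The RefSeq promoter window of DUSP6 is printed because this gene varied most. It runs from 250 bases before to 50 bases after the start site, on the minus strand of chr12:89352452-89352751 (GRCh38.p14), and has 58.3% G and C. The 4 sequence patterns of factors that act below MAPK were searched on both strands. They were the ETS pattern CCGGAA, the AP-1 site TGANTCA, the CRE TGACGTCA and the CArG box. None was found in this window, which says only that these letters are not in it. Shorter or looser ETS sites were not searched, and the letters GGAA do occur in the window.

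DUSP6: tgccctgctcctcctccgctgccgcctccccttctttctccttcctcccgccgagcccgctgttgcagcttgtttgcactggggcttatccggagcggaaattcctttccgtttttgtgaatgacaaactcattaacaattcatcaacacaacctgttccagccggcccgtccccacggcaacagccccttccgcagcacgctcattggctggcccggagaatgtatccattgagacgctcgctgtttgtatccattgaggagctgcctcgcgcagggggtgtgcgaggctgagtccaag

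Of the 10 genes, 8 had entries in the promoter table, with 13 windows in all, and DUSP4 and DUSP5 had no entry. The ETS pattern CCGGAA was in 2 of the 13 windows, against 17.2% of 35116 promoters. The AP-1 site was in 1 of 13, a start of SPRED2, against 7.71%. The CRE (1.85% of promoters) and the CArG box (1.29%) were in 0 of 13. These matches are descriptions and not measured binding.

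DUSP2, DUSP4 and DUSP5 are phosphatases of the cell nucleus, and DUSP5 is specific for ERK. DUSP2 (204794_at), an early gene of activated T-cells, had the smallest spread of the 10. It was at 8.76 in HPB-ALL, 7.16 in LOUCY, 6.86 in JURKAT, 6.70 in ALL-SIL, 6.67 in PEER and 6.65 in CCRF-CEM among NKL-positive lines, and at 8.32 in MOLT-16, 8.01 in SUP-T1, 7.56 in CML-T1, 7.16 in MOLT-4 and 6.65 in MOLT-14 among NKL-negative lines. HPB-ALL alone was high among the NKL-positive lines, and the groups overlapped. The means were 7.19 ± 0.90 and 7.54 ± 0.66 (SD, n = 5 NKL-positive and 5 NKL-negative lines), a difference of -0.35 (SE 0.46, limma adjusted p = 0.982). DUSP2 was at 7.56 to 8.76 in the 3 lines without poly-A controls and 6.65 to 8.01 in the 8 lines with them, and the part of this in the result was not tested. Its difference was -0.48 within the lines with controls and 0.82 within those without, and -0.74 without HPB-ALL alone.

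DUSP4 (204015_s_at) was a gene of 1 line. CML-T1 had 7.29, and the other NKL-negative lines had 4.78 in MOLT-4, 4.73 in MOLT-16, 3.97 in SUP-T1 and 3.83 in MOLT-14. In the NKL-positive lines DUSP4 was at 5.71 in CCRF-CEM, 4.44 in JURKAT, 4.22 in ALL-SIL, 4.07 in PEER, 4.0 in HPB-ALL and 3.21 in LOUCY, mostly below the array median. CML-T1 was also first on both other DUSP4 probe sets, at 8.27 and 7.79, where no other line exceeded 4.04 and 4.82. The group means of 4.24 ± 0.91 in NKL-positive and 4.92 ± 1.39 among NKL-negative lines (SD, n = 5 each) differed by -0.68 (SE 0.66, limma adjusted p = 0.981). The difference was 0.11 within the lines with poly-A controls, which leave out CML-T1, and -2.01 within those without. Without CML-T1 alone it was -0.09.

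DUSP5 (209457_at) was highest in LOUCY at 7.03, followed among NKL-positive lines by HPB-ALL at 5.71, JURKAT at 5.04, CCRF-CEM at 4.29, PEER at 3.92 and ALL-SIL at 3.71. NKL-negative lines had 6.49 in SUP-T1, 5.93 in CML-T1, 4.97 in MOLT-4, 4.78 in MOLT-16 and 3.74 in MOLT-14. The ranges of the groups overlapped almost fully. The means were 4.93 ± 1.41 in NKL-positive and 5.18 ± 1.07 among NKL-negative lines (SD, n = 5 each), with a difference of -0.25 (SE 0.70, limma adjusted p = 0.993), which was -0.33 and 0.35 within lines with and without poly-A controls.

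DUSP10 and DUSP16 act on JNK and p38 rather than ERK. For DUSP10 (221563_at) the NKL-positive lines had 9.59 in LOUCY, 8.38 in HPB-ALL, 7.06 in CCRF-CEM, 6.91 in JURKAT, 6.68 in PEER and 4.19 in ALL-SIL. The NKL-negative lines had 9.76 in MOLT-16, 7.97 in SUP-T1, 7.36 in CML-T1, 5.90 in MOLT-4 and 4.83 in MOLT-14. Both groups therefore covered nearly the same span, and their means of 7.18 ± 2.03 in NKL-positive and 7.16 ± 1.90 among NKL-negative lines (SD, n = 5 each) differed by 0.02 (SE 1.09, limma adjusted p = 0.999). The second DUSP10 probe set correlated with the first at r = 0.97, with 7 of 11 lines at the same place. Within lines with poly-A controls the difference was 0.65, and within those without it was -0.18.

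DUSP16 (224832_at) peaked in HPB-ALL at 9.14, and the other NKL-positive lines had 8.02 in JURKAT, 5.74 in LOUCY, 5.71 in ALL-SIL and CCRF-CEM, and 4.98 in PEER. NKL-negative lines were closer together, at 7.38 in MOLT-4, 7.10 in MOLT-16, 7.01 in SUP-T1, 6.43 in CML-T1 and 5.53 in MOLT-14. The means of 6.26 ± 1.64 in NKL-positive and 6.69 ± 0.73 among NKL-negative lines (SD, n = 5 each) differed by -0.43 (SE 0.71, limma adjusted p = 0.984). This gene had the least agreement between probe sets: 2 of its 4 pointed the other way, at 0.72 and 0.34, and these correlated with the one read at only r = 0.23 and 0.31. The difference was -1.11 within lines with poly-A controls and 2.38 within those without, where HPB-ALL is the 1 NKL-positive line. Without HPB-ALL alone it was -1.16, and without PEER -0.12.

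**Figure D3:**
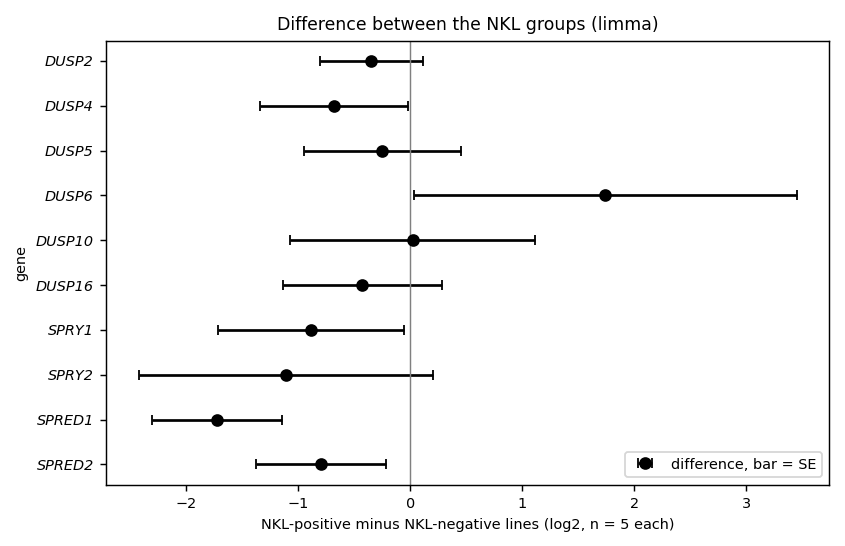
Difference of each feedback gene between the groups (horizontal axis, NKL-positive minus NKL-negative, log2, 5 lines each) with genes down the vertical axis and bars for the standard error of the limma fit. DUSP6 at 1.74 and SPRED1 at -1.73 are farthest from 0, and no gene reached an adjusted p under 0.05.

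The Sprouty genes inhibit signalling from growth factor receptors to RAS. SPRY1 (212558_at) separated lines into a low and a high range. It was at 9.14 in CCRF-CEM, 8.56 in LOUCY and 7.90 in PEER but at 5.48 in ALL-SIL, 4.91 in JURKAT and 4.86 in HPB-ALL among NKL-positive lines. NKL-negative lines were all in the upper range, at 9.31 in MOLT-16, 8.48 in MOLT-14, 7.94 in MOLT-4, 7.62 in CML-T1 and 7.03 in SUP-T1. On this probe set the 3 low lines were thus all NKL-positive, while the other 3 NKL-positive lines overlapped with the NKL-negative ones. SPRY1 averaged 7.19 ± 1.91 in NKL-positive and 8.08 ± 0.87 among NKL-negative lines (SD, n = 5 each), a difference of -0.89 (SE 0.83, limma adjusted p = 0.981). The second probe set correlated at r = 0.90 and gave -0.20. On it HPB-ALL (4.38) and JURKAT (4.82) were again lowest. ALL-SIL was there level with CML-T1 at 5.97 and close to SUP-T1 at 6.02, so the split into 2 ranges did not hold. For 212558_at the difference was -0.05 within lines with poly-A controls and -3.60 within those without. It was -0.31 without HPB-ALL and -0.46 without ALL-SIL.

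SPRY2 (204011_at) had the second widest spread, with a standard deviation of 2.29, larger than for 98.7% of genes. NKL-positive lines had 8.53 in LOUCY, 8.29 in JURKAT, 7.43 in HPB-ALL, 5.27 in CCRF-CEM, 3.06 in ALL-SIL and 2.78 in PEER. In NKL-negative lines SPRY2 was at 8.60 in MOLT-16, 7.36 in MOLT-4, 6.93 in SUP-T1, 6.79 in MOLT-14 and 2.92 in CML-T1. PEER, CML-T1 and ALL-SIL were below the lower quartile of their own arrays, and the other 8 lines were at 5.27 or above. SPRY2 had only 1 probe set, so these low values could not be compared with another. The group means of SPRY2 were 5.41 ± 2.56 among NKL-positive and 6.52 ± 2.14 among NKL-negative lines (SD, n = 5 each), a difference of -1.11 (SE 1.31, limma adjusted p = 0.982). It was -2.12 within lines with poly-A controls and 1.67 within those without. Each line with low SPRY2 moved it, to -0.45 without PEER, -0.52 without ALL-SIL and -2.01 without CML-T1.

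The windows of SPRY1 and SPRY2 that hold the ETS pattern CCGGAA, in capitals, are shown because they are the 2 of the 13 windows with a match to it. The match lies at positions 184 to 189 of a SPRY1 start on the plus strand of chr4:123398136-123398435 and at positions 109 to 114 of a SPRY2 start on the minus strand of chr13:80341077-80341376 (GRCh38.p14, RefSeq), counted from 1 at the 5′ end. The other starts of both genes in the table held none of the 4 patterns, and the values of the 2 genes correlated over the lines at r = 0.05.

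SPRY1: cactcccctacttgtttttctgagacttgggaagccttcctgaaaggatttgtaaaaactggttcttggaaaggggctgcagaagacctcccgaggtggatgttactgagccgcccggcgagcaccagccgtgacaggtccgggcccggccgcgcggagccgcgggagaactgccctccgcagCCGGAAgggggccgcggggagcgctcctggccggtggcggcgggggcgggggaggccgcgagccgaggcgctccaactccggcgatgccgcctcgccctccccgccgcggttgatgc
SPRY2: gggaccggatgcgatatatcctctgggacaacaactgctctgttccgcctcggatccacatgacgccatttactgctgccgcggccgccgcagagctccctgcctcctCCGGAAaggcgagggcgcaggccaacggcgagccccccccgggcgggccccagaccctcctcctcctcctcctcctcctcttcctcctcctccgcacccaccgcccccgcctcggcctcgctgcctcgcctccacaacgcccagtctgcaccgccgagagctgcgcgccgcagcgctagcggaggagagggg

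SPRED1 helps to bring the RAS inhibitor neurofibromin to the membrane. SPRED1 (226837_at) was the gene nearest to a group difference. In the NKL-positive lines it was at 3.65 in CCRF-CEM, 2.94 in PEER, 2.74 in LOUCY, 2.64 in ALL-SIL and 2.56 in HPB-ALL, with JURKAT apart at 6.27. NKL-negative lines had 6.42 in CML-T1, 5.42 in MOLT-14, 4.78 in MOLT-16, 3.39 in MOLT-4 and 3.17 in SUP-T1. The 5 compared NKL-positive lines were at the floor of the array or just above it, and CCRF-CEM overlapped with MOLT-4 and SUP-T1. Means of 2.91 ± 0.44 in NKL-positive and 4.64 ± 1.37 among NKL-negative lines (SD, n = 5 each) differed by -1.73 (SE 0.58, limma unadjusted p = 0.0126, adjusted p = 0.968). A second probe set gave -1.75 (SE 0.53, limma adjusted p = 0.92) and a further, dimmer one -0.54. The difference was -1.0 within lines with poly-A controls and -3.04 within those without. With JURKAT counted among the NKL-positive lines it was -1.17 (limma unadjusted p = 0.151).

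SPRED2 (212458_at), its relative, had a standard deviation of 1.01 over the 11 lines, against 1.46 for SPRED1, but a range nearly as wide (3.72 against 3.86). NKL-positive lines had 8.88 in HPB-ALL, 8.36 in JURKAT, 8.29 in CCRF-CEM, 8.15 in LOUCY, 7.38 in ALL-SIL and 5.43 in PEER, and NKL-negative lines had 9.15 in CML-T1, 8.74 in MOLT-14, 8.32 in SUP-T1, 8.30 in MOLT-4 and 7.63 in MOLT-16. PEER was the 1 line that stood out, 2.88 below the median of the others. SPRED2 averaged 7.63 ± 1.34 in NKL-positive and 8.43 ± 0.57 among NKL-negative lines (SD, n = 5 each), a difference of -0.80 (SE 0.58, limma adjusted p = 0.981). The other 2 probe sets gave 0.07 and -0.13 but were dim, with means of 4.46 and 3.21 over all lines. For the probe set read, the difference was -1.14 within lines with poly-A controls and 0.49 within those without. Without PEER alone the difference was -0.25.

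Read by line rather than by gene, the feedback genes formed a different profile in nearly every line. CML-T1 combined high DUSP6, DUSP4 and SPRED1 with SPRY2 at the floor. LOUCY stood out above for DUSP6, DUSP10 and DUSP5. ALL-SIL had high DUSP6 with low DUSP10, SPRY1 and SPRY2. HPB-ALL had high DUSP16 with low DUSP6 and SPRY1, and JURKAT had high SPRED1 with low DUSP6 and SPRY1. PEER was low for SPRY2 and SPRED2, MOLT-14 was high for SPRED1 and low for DUSP10, MOLT-16 was high for DUSP10, and MOLT-4 and SUP-T1 were low for DUSP6. CCRF-CEM stood out for 0 of the 10. In all there were 24 such cases, 11 above and 13 below, and they fell in lines of both groups.

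The 10 genes did not vary as 1 block. Over the 45 pairs of genes the mean Pearson r across the 11 lines was 0.133, against 0.00549 over all pairs of genes. All lines were normalized together, and 3 of them share the lack of poly-A controls. Of the 45 pairs, 7 had r above 0.5, led by DUSP2 with DUSP16 at 0.72, DUSP5 with DUSP10 at 0.71 and DUSP2 with DUSP10 at 0.66. In 3 pairs r was below -0.5: DUSP6 with DUSP16 at -0.63, SPRY1 with DUSP16 at -0.57 and DUSP6 with SPRY2 at -0.54. The shares of all pairs of genes beyond 0.5 and -0.5 are not given here, so these counts are descriptions only. DUSP6 had no r above 0.31 with any of the other 9.

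**Figure D4:**
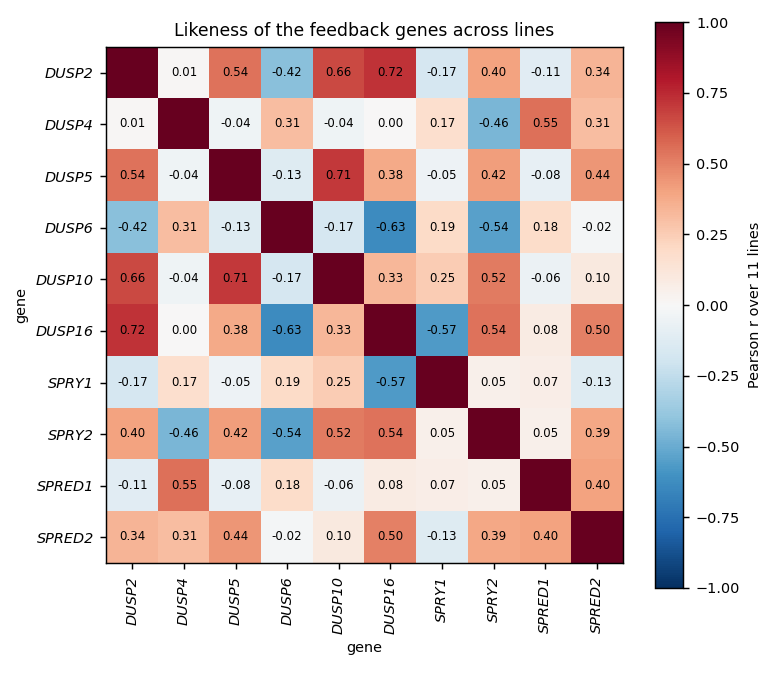
Pearson r over the 11 lines between each 2 of the 10 feedback genes, on both axes, with the colour running from blue at -1 to red at 1. The highest values join DUSP2 to DUSP16 (0.72) and DUSP5 to DUSP10 (0.71), and the lowest joins DUSP6 to DUSP16 (-0.63).

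Of the 7180 genes with a range of at least 2 log2 units over the lines, the one most like DUSP6 was OSM, the cytokine oncostatin M (r = 0.93), followed by SLFN12 (0.89) and PDE9A (0.88). The nearest to SPRY2 were HEBP1 (0.84), IL6ST (0.82), a shared receptor subunit of interleukin 6 cytokines, and ZNF488 (0.81). SPRY1 came closest to GCHFR and NFE2 (0.86 each) and to PTPRC (0.85), which encodes CD45. For SPRED1 they were ZCCHC14 (0.93), SGSH and FAM241B (0.92 each), and for SPRED2 TAPT1 and SWI5 (0.89 each) and TRIM44 (0.88). With so many genes and 11 lines, values of this size are descriptions only.

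Among the other phosphatases the same lookup gave GCSAM (0.95), ZNF383 (0.90) and HIP1 (0.88) for DUSP2. DUSP4 was closest to RUNDC3B (0.95), HS3ST4 (0.93) and KCNMB2-AS1 (0.91), all 3 highest in CML-T1. DUSP5 had ZSWIM5 (0.92), TMEM62 (0.90) and TEX14 (0.89), and DUSP10 had LINC00467 (0.92), SMPD1 and RFESD (0.88 each). DUSP16 was nearest to ST3GAL6 (0.94), LRRC17 (0.92) and DLC1 (0.90), all 3 highest in HPB-ALL.

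Genes that ERK induces correlated with the feedback genes in both directions. Of 20 listed ERK targets 19 were measured, of which 9 had a higher and 10 a lower mean in the NKL-positive lines, with a median difference of -0.03 and 0 called by limma. The median r of DUSP6 with these 19 was 0.05, with IER2 highest at 0.69 and NR4A1 lowest at -0.68. For the other 9 feedback genes the median lay between -0.15 (SPRY2) and 0.20 (DUSP4).

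EGR1, an immediate early transcription factor, was the target with the smallest p. Of the 19 targets it was the only 1 with an unadjusted p under 0.05 by limma, against 5.26% of all genes. EGR1 was at 9.38 in JURKAT, 8.52 in HPB-ALL, 8.09 in PEER, 5.80 in LOUCY, 4.04 in CCRF-CEM and 4.03 in ALL-SIL among NKL-positive lines. In NKL-negative lines EGR1 had 10.63 in CML-T1, 10.50 in MOLT-16, 8.11 in SUP-T1, 7.32 in MOLT-4 and 7.23 in MOLT-14. Lines with high DUSP6 were thus found at both ends of EGR1, since ALL-SIL had the lowest EGR1 and CML-T1 the highest. The EGR1 means were 6.10 ± 2.15 in NKL-positive and 8.76 ± 1.69 among NKL-negative lines (SD, n = 5 each), a difference of -2.66 (SE 1.07, limma unadjusted p = 0.031, adjusted p = 0.981). FOS, another immediate early gene, was at 5.78 to 6.49 in the 3 lines without poly-A controls. In the 8 lines with them it was at 3.32 to 5.51, without overlap. The share of all genes that separate these sets of lines is not given here, so this is a description only. EGR1 was at 8.52 to 10.63 and 4.03 to 9.38 in the same sets, and its group difference was -2.05 within the lines without and -2.06 within the lines with controls. FOS averaged 4.15 ± 0.92 in NKL-positive and 5.02 ± 1.31 among NKL-negative lines (SD, n = 5 each), a difference of -0.87 (limma adjusted p = 0.981), which was -0.54 within lines with poly-A controls and -0.35 within those without.

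ETV5, an ETS factor chosen here after its values were seen, was at 11.41 in MOLT-14, 9.91 in CCRF-CEM and 9.67 in CML-T1. In these lines DUSP6 was at 9.26, 9.30 and 12.48. ETV5 was at 4.03 in ALL-SIL, where DUSP6 was also high. Over the 11 lines the r with DUSP6 was 0.42 for ETV5 and 0.41 for SPRY4. SPRY4, a further Sprouty gene, was at 8.52 in CML-T1 and at most 5.44 in the other 10 lines. The targets PHLDA1 and MYC differed by 0.61 and -1.94 (limma adjusted p = 0.981 each). MYC was at 3.38 in LOUCY, its lowest line, and its difference was -2.13 within lines with poly-A controls and 0.03 within those without.

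**Figure D5:**
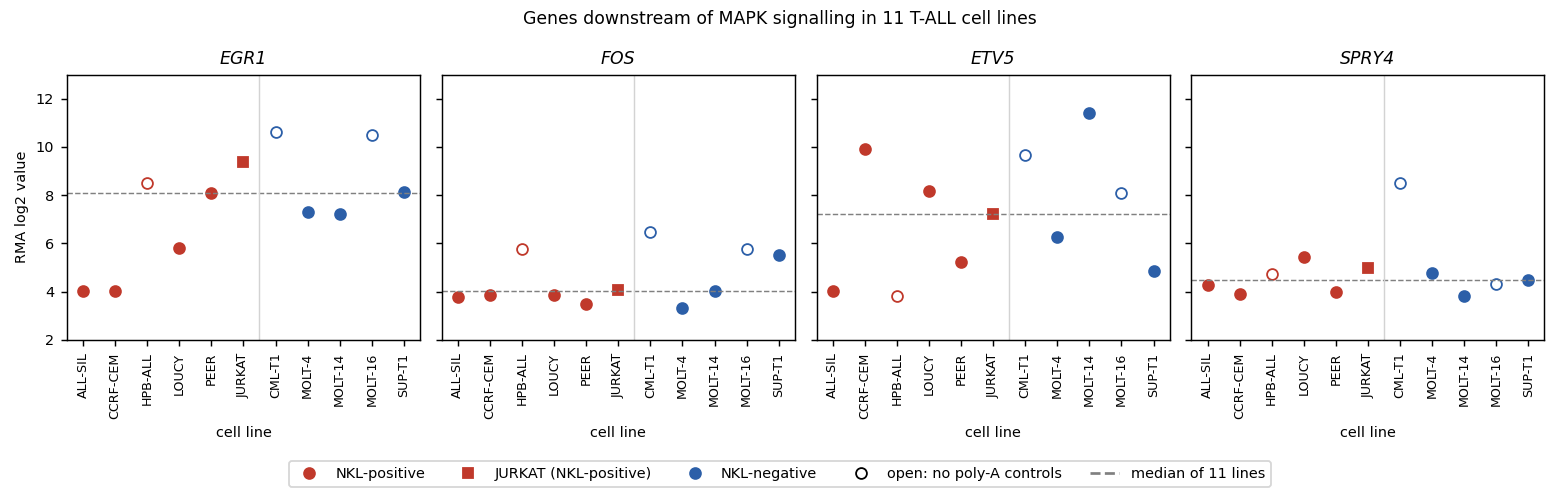
RMA log2 values (vertical axis) of EGR1, FOS, ETV5 and SPRY4 in the 11 lines (horizontal axis), with red marks for NKL-positive lines, blue marks for NKL-negative lines, open marks for the 3 lines without poly-A controls and dashed lines at the medians. FOS is at 5.78 to 6.49 in the 3 open marks and at most 5.51 elsewhere, and SPRY4 is high only in CML-T1.

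The remaining parts of the pathway likewise held no call, with 0 genes at an adjusted p under 0.05 by limma in any of the lists. Of 12 other dual-specificity phosphatase and Sprouty family genes, 6 were higher and 6 lower, with DUSP9 (0.41), SPRED3 (0.27), DUSP3 (-0.35) and SPRY4 (-0.72) nearest to a difference. In the RAS to ERK cascade 7 of the 10 measured genes were higher in NKL-positive lines, among them ARAF (0.45), MAP2K1 (0.50), which encodes MEK1, and RPS6KA1 (0.61), and 3 were lower, among them RRAS2 (-1.49). Of 12 RAS activators and adaptors 5 were higher and 7 lower, with RASGRP1 at 1.18, SHC1 at 0.77, LAT at -0.82 and RASGRP3 at -0.93. In the cascade and among its activators 0 genes had an unadjusted p under 0.05 by limma, against 5.26% of all genes.

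Of 11 measured RAS GTPase-activating proteins and other inhibitors, 9 had a higher mean in NKL-positive lines and 2 a lower one. By limma 2 of the 11 had an unadjusted p under 0.05 (PEBP1 at 0.0053 and ERRFI1 at 0.0127), against 5.26% of all genes. PEBP1, an inhibitor in this list, averaged 11.32 ± 0.51 in NKL-positive and 9.88 ± 0.86 among NKL-negative lines (SD, n = 5 each), a difference of 1.45 (SE 0.41, limma adjusted p = 0.839). It was 1.41 within lines with poly-A controls and 1.09 within those without. ERRFI1, a feedback inhibitor of the EGF receptor, averaged 3.38 ± 0.23 in NKL-positive and 5.21 ± 1.52 among NKL-negative lines (SD, n = 5 each), a difference of -1.83 (SE 0.61, limma adjusted p = 0.968), with JURKAT at 6.42. The ERRFI1 difference was -1.52 within lines with poly-A controls and -2.05 within those without. As for SPRED1, the 5 compared NKL-positive lines were near the floor and JURKAT was not. CBL differed by 0.35 and RASAL1 by -0.63.

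In the JNK and p38 branch, on which DUSP10 and DUSP16 act, 9 of 13 measured genes were higher in NKL-positive lines and 4 lower. By limma 3 of the 13 had an unadjusted p under 0.05, against 5.26% of all genes. They were MAP4K1 (0.00202), MAPK9 (0.00329) and MAP3K5 (0.0209). MAP4K1, a kinase of blood cells upstream of JNK, averaged 8.41 ± 0.33 in NKL-positive and 7.36 ± 0.46 among NKL-negative lines (SD, n = 5 each), a difference of 1.06 (SE 0.26, limma adjusted p = 0.738). MAPK9, which encodes the kinase JNK2, averaged 7.99 ± 0.32 in NKL-positive and 8.89 ± 0.39 among NKL-negative lines (SD, n = 5 each), a difference of -0.90 (SE 0.24, limma adjusted p = 0.803). The compared groups did not overlap for these 2 of the 13 genes, against 0.905% of all genes. Within lines with and without poly-A controls the difference was 1.31 and 0.37 for MAP4K1 and -0.88 and -0.86 for MAPK9. JURKAT, at 7.72 for MAP4K1 and 9.09 for MAPK9, lay with the NKL-negative lines. MAP3K5 differed by -1.49 (-0.52 within lines with poly-A controls and -3.14 within those without) and MAP3K8 by 0.87. Of 9 stress and heat shock genes, 4 were higher and 5 lower, with a median difference of 0, and HSPB1 (0.75), GADD45A (0.50), DDIT3 (-0.48) and ATF3 (-0.53) nearest to a difference.

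The markers of other cell types held no call either. CD79B, which encodes a part of the B-cell receptor, was at 8.25 in LOUCY, 7.46 in PEER, 6.95 in CCRF-CEM, 6.88 in ALL-SIL, 5.56 in HPB-ALL and 4.19 in JURKAT among NKL-positive lines, and at 6.64 in CML-T1, 4.76 in MOLT-14, 4.67 in SUP-T1, 4.43 in MOLT-4 and 3.64 in MOLT-16 among NKL-negative lines. The groups overlapped through CML-T1 and HPB-ALL, with means of 7.02 ± 0.98 in NKL-positive and 4.83 ± 1.10 among NKL-negative lines (SD, n = 5 each) and a difference of 2.19 (SE 0.59, limma unadjusted p = 0.0037, adjusted p = 0.808). It was 2.76 within lines with poly-A controls and 0.42 within those without. The other B-cell markers nearest to a difference were MS4A1 (-0.67), PAX5 (0.41) and BLNK (0.15). Among myeloid markers CD14, near the floor in every line, differed by 0.51 (limma unadjusted p = 0.0234, adjusted p = 0.981), followed by CSF1R (0.33), S100A8 (-0.18) and S100A9 (-0.15). An unadjusted p under 0.05 by limma was thus seen for 1 of 6 B-cell and 1 of 8 myeloid markers. It was seen for 0 of 12 T-cell and 0 of 5 erythroid and megakaryocyte markers, against 5.26% of all genes. T-cell markers nearest to a difference were CD7 (0.99), LCK (-0.36), CD4 (1.42) and CD5 (0.33), and of the erythroid and megakaryocyte markers they were HBB (0.36), PF4 (0.23), ITGA2B (0.15) and EPOR (-0.03). The part of these markers in the values of the 10 genes was not tested.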

How the data were processed

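Per the labels, total RNA of the 11 lines was extracted with Trizol and labelled as biotinylated cRNA. The submitters' processing notes name RMA, affy and limma without versions, and the deposited log2 values of the authors are background-corrected, quantile-normalized and summarised per probe set. The methods also describe ratios to the sample mean, but the deposited values are not centred. They were used as deposited. Of 54613 probe sets, after 62 controls were left out, 41091 carry 1 symbol, 1801 several and 11721 none. The groups were compared by limma 3.58.1 (R 4.3.3; 5 against 5 lines, no covariate, empirical Bayes) and adjusted by Benjamini-Hochberg over all 54613. The fit was run on simulated data with independent noise, where the check was only that the median fitted change lay close to the change put in. How many true changes 5 against 5 lines can call is not given here. Arrays have no depth, and their number limits the precision.

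Named were the 10 genes, the 3 genes most like each by Pearson r among genes with a range of at least 2, and the 4 genes of smallest p in each other list, each read from its brightest probe set. The genes and lists were chosen with earlier results of these data known. Alternatives were all 11 lines, each line left out, quantile normalization, arrays centred on their medians, dim probe sets removed, array weights, an intensity trend, a mean over all probe sets of a gene, a term for poly-A controls, only lines with them, and gaps of 1 or 3. Promoter sequences are from RefSeq (GRCh38.p14). Tables used pandas 2.3.3 and numpy 2.4.6.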

Additional observations from a re-analysis of the deposited data

Results flagged for a closer look

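The NKL-positive and the NKL-negative lines were each tested for 1 line far from the rest, by its gap to the nearest line as a share of the whole range of the group (Dixon's test). Of 20 groups tested over the 10 genes 3 held such a line, against 8.31% of the groups over all genes and about 5% by chance. DUSP2 was at 8.76 in HPB-ALL, and the other 5 NKL-positive lines were at 6.65 to 7.16. SPRED1 was at 6.27 in JURKAT, and the other NKL-positive lines were at 2.56 to 3.65. DUSP4 was at 7.29 in CML-T1, and the other 4 NKL-negative lines were at 3.83 to 4.78. HPB-ALL and CML-T1 are among the 3 lines without poly-A controls, whose part in these values was not tested, and JURKAT is not.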

How the results depend on the processing

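No paired analysis was possible because no line is in both groups. None of the 10 genes was called under any of the alternatives, and 176 of 188 refitted differences kept their direction. The number of genes higher in NKL-positive lines was 1 with all 11 lines, with quantile normalization and with array weights, and 1 to 3 with a line left out. The number without overlap was 1 with only the lines that have poly-A controls (SPRED2, against 7.88% of all genes) and 0 to 1 with a line left out (SPRED1 without CCRF-CEM, against 1.51% of all genes). The median difference of the 10 genes ran between -0.72 and -0.24 with a line left out and was -0.31 with a term for poly-A controls. Called probe sets numbered 0 with all 11 lines, 3 with a term for poly-A controls, 3 with only lines that have them, and 3 to 13 with a line left out (13 without LOUCY, 9 without MOLT-14, 3 without HPB-ALL, PEER or CML-T1). Cases of a gene standing out in a line numbered 52 at a gap of 1 and 15 at a gap of 3. DUSP10, at 0.02, turned to -0.03 with all 11 lines, -0.04 with quantile normalization, -0.04 with array weights, -0.28 without HPB-ALL, -0.59 without LOUCY, -0.30 without MOLT-4 and -0.57 without MOLT-14. With a line left out DUSP10 ran up to 0.76 (without ALL-SIL). DUSP5, at -0.25, ran down to -0.77 without LOUCY and turned to 0.06 without ALL-SIL, 0.00 without PEER and 0.08 without SUP-T1, DUSP4 to 0.11 with only the lines that have poly-A controls, and DUSP16 to 0.09 as the mean over its probe sets. DUSP6 stayed between 0.87 (without MOLT-4) and 4.24, and SPRED1 between -2.10 and -1.0. The causes were not tested. DUSP4 and SPRED1 have no value once dim probe sets are removed. The number of arrays and the single array per line limit the precision.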

Other observations

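The 3 lines with SPRY2 below the lower quartile of their arrays (3.06 in ALL-SIL, 2.78 in PEER and 2.92 in CML-T1, against 5.27 to 8.60 in the other 8 lines) are, as background known from outside these data, lines with a fusion of the ABL1 kinase. The lines were set together after their values were seen, so no test is given, and SPRY2 had only 1 probe set. DUSP6 was at 11.70, 8.07 and 12.48 in ALL-SIL, PEER and CML-T1 and at 3.90 to 10.98 in the others, with overlap. DUSP1, the immediate early phosphatase of the family, had the value most like DUSP5 among the other family genes, at r = 0.84 over the 11 lines, with 10.13 in SUP-T1 and 9.04 in LOUCY.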
